A study of Mus musculus with 17 samples.

Results

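The core circadian clock genes examined here were Arntl, Npas2, Nfil3, Per1, Per2, Per3, Nr1d1, Nr1d2, Dbp and Ciart. They are 10 of the 45777 genes of the count table and were taken from it by their symbols. All 10 passed the filter on low counts that kept 22052 genes, and the smallest count of any of them in any library was 116 reads, for Npas2. The genes were chosen by their measured levels, which had been seen to differ among the dose and time groups of these same libraries, so their group values are given as a description, without p-values.

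The study followed lung injury after a single focal dose of radiation, with an inflammation stage sampled at 2 weeks and a fibrosis stage at 6 weeks. RNA was sequenced from lungs of male wild-type C57BL/6 mice that were 6 weeks old on arrival. The left lung received 65 Gy or 75 Gy in 1 fraction, and irradiated samples were taken from the lesions, whereas control lungs were not irradiated. Control lungs, 65 Gy lungs and 75 Gy lungs had 3 libraries each at 2 weeks and 3, 2 and 3 at 6 weeks, 17 libraries in all. The paper lists 3 replicates for 65 Gy at 6 weeks, of which the counts used here hold 2. The sample labels name no other treatment or allele. The paper's methods describe anesthesia with ketamine and xylazine and do not say which groups received it. The hour of the day at which the lungs were collected is not given in the sources used here. For every difference between groups described below, irradiation or time on one side and the hour of collection on the other cannot be told apart. In bulk tissue, fewer cells of a type and less RNA per cell cannot be told apart either. Totals ran from 46764569 to 66797879 counts per library. Lung markers were abundant in every library, with a summed level of 17424 to 32520 CPM (counts scaled to library size) for 6 genes of alveolar type 2 cells. Library 3134 (75 Gy, 2 weeks) stood apart, with 1260 CPM over 6 endothelial markers against 2007 and 2315 CPM in the other libraries of its group. Library 3129 (65 Gy, 2 weeks) had 24.4 CPM over the 2 of 3 brown adipocyte markers that passed the filter. Their sum was 2.34 CPM or less in every other library.

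The circadian clock is a feedback loop of transcription that runs in nearly every cell, the lung epithelium included. Arntl (also called Bmal1) pairs with Clock or with its paralog Npas2 and switches on genes with an E-box, among them the Per and Cry genes, the REV-ERB genes Nr1d1 and Nr1d2, and Dbp. The Per and Cry proteins then shut off Arntl and Clock, REV-ERB proteins hold down Arntl, Npas2 and Nfil3 through ROR elements, and Dbp and Nfil3 compete with opposite effects at D-boxes. In mouse tissues Arntl and Npas2 therefore peak at an hour when Dbp, Nr1d1 and the Per genes are low, and the reverse.

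The promoters below are shown because they carry the letters of these elements, with the part that matched in capitals. Promoter sequences of RefSeq (GRCm38.p6) matched 9 of the 10 genes, as 11 promoters, and the 250 bases before each start site were searched on both strands for the E-box CACGTG, the D-box TTANGTAA and the ROR element core TAGGTCA. Each line is 5' to 3' on the strand of the gene.
Ciart, chr3:95882229-95882478, minus strand, E-boxes: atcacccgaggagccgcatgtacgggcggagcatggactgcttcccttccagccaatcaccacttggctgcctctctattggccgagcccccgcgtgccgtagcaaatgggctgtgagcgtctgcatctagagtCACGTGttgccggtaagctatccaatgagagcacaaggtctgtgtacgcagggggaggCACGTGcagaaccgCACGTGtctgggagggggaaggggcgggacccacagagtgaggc
Per1, chr11:69098699-69098948, plus strand, E-box: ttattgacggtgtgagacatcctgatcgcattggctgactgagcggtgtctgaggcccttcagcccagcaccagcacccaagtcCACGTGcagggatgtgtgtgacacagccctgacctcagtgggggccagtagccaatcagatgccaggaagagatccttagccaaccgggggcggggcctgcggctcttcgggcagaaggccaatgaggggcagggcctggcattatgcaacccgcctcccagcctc
Per3, chr4:151044666-151044915, minus strand, D-boxes: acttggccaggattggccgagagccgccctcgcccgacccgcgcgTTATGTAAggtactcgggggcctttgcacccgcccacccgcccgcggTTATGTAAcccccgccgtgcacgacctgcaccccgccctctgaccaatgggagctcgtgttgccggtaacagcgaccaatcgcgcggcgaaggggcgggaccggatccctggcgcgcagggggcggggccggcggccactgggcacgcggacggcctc
Nfil3, chr13:52981040-52981289, minus strand, ROR element core read on the other strand: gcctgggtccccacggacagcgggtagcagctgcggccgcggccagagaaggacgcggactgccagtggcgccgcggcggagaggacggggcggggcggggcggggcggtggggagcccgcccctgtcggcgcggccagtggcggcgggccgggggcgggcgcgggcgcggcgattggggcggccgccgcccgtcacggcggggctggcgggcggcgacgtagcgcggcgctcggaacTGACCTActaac
No promoter of these genes held matches of more than 1 kind. Ciart held 3 E-boxes, the first promoter of Per1 held 1, Per3 held 2 D-boxes and Nfil3 held 1 ROR element core. Among 32851 promoters of the same length, 6.02% held an E-box, 2.06% a D-box and 2.23% a ROR element core. None of these letter strings was found in the windows of Arntl, Npas2, Nr1d1, Nr1d2, Dbp or the second promoter of Per1. Elements outside the 250 bases, cut by the end of a window or spelled with other letters were not searched for. The absence of a match therefore does not show that a gene lacks the element. A match is a description of the letters and not of binding.

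**Figure D1:**
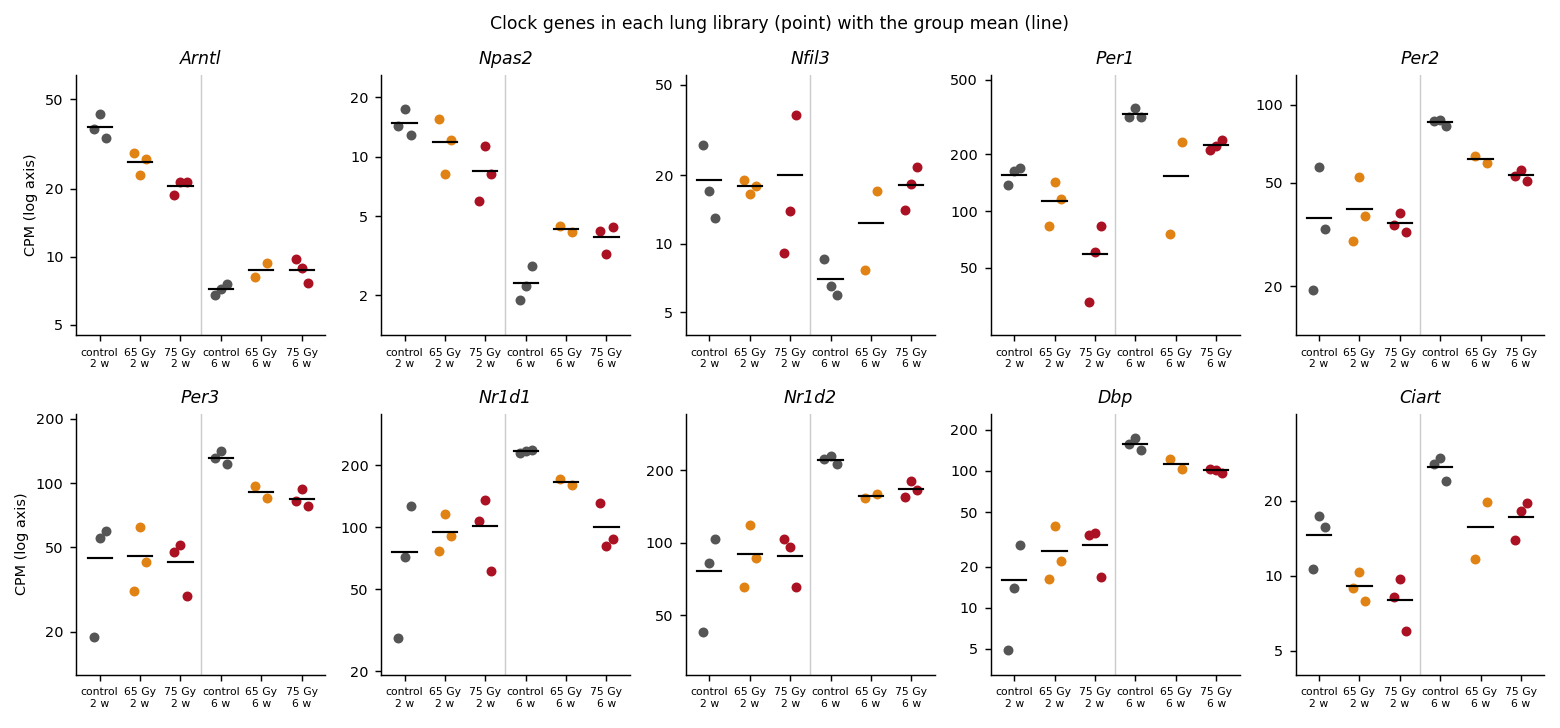
Level of each of the 10 clock genes in each of 17 lung libraries, in CPM on a log axis, by dose (colour) and time, with a line at the group mean. Arntl and Npas2 lay lower in every 6-week library than in every 2-week library, whereas Dbp and Nr1d2 lay higher, and the 3 control libraries of 2 weeks were far apart for Dbp, Nr1d1, Per2 and Per3.

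The activators came first in the order of the loop. Arntl (chr7:113178471-113314126), the transcription factor without which the loop stops, was at 36.8, 42.8 and 33.7 CPM in control lungs of 2 weeks, at 28.7, 23.1 and 27.3 CPM after 65 Gy and at 18.7, 21.5 and 21.6 CPM after 75 Gy. The 3 groups of 2 weeks followed the dose without overlap. At 6 weeks Arntl was at 6.75, 7.203 and 7.59 CPM in controls, at 8.18 and 9.40 CPM after 65 Gy and at 9.76, 8.95 and 7.65 CPM after 75 Gy. Every 6-week library was thus below every 2-week library, and the order of control and irradiated lungs was turned around, with both doses above the controls and overlapping each other. Npas2 (chr1:39193702-39363240), the other partner of Arntl, was at 14.3, 17.3 and 12.8 CPM in controls of 2 weeks, at 15.5, 8.13 and 12.1 CPM after 65 Gy and at 5.99, 11.4 and 8.14 CPM after 75 Gy. At 6 weeks it was at 1.88, 2.23 and 2.79 CPM in controls, at 4.49 and 4.15 CPM after 65 Gy and at 4.20, 3.22 and 4.40 CPM after 75 Gy. Npas2 had the same order as Arntl, with the 65 Gy group of 2 weeks overlapping both of its neighbours.

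Among the repressors, Per1 (chr11:69095108-69109965), a clock gene that glucocorticoids also induce, was at 138, 163 and 169 CPM in controls of 2 weeks, at 83.0, 142 and 116 CPM after 65 Gy and at 32.9, 60.9 and 83.7 CPM after 75 Gy. At 6 weeks it was at 315, 354 and 318 CPM in controls, at 75.3 and 232 CPM after 65 Gy and at 212, 223 and 240 CPM after 75 Gy. The irradiated lungs lay below the controls at both times except for 1 of the 65 Gy libraries of 2 weeks, which overlapped them, and the 65 Gy libraries of 6 weeks were far apart. Per2 (chr1:91415977-91459351) was at 19.4, 57.4 and 33.3 CPM in controls of 2 weeks, and all 6 irradiated libraries of that time, from 29.7 to 52.5 CPM, lay within that range. At 6 weeks Per2 was at 87.0, 87.4 and 83.1 CPM in controls, at 63.6 and 59.9 CPM after 65 Gy and at 53.1, 56.2 and 51.0 CPM after 75 Gy, 3 groups in the order of the dose without overlap. Per3 (chr4:150997018-151044707), the Per gene that the loop can do without, was at 18.9, 55.0 and 59.8 CPM in controls of 2 weeks and from 29.4 to 62.3 CPM in irradiated lungs. At 6 weeks Per3 was at 131, 141 and 122 CPM in controls, at 96.4 and 84.7 CPM after 65 Gy and at 82.5, 93.6 and 77.8 CPM after 75 Gy, so that both doses lay below the controls and overlapped each other. Ciart (chr3:95878500-95882257), a repressor of the Clock and Arntl pair, was at 10.7, 17.4 and 15.8 CPM in controls of 2 weeks, at 8.97, 10.4 and 7.91 CPM after 65 Gy and at 8.25, 9.74 and 6.03 CPM after 75 Gy. At 6 weeks Ciart was at 28.0, 29.8 and 24.1 CPM in controls, at 11.7 and 19.8 CPM after 65 Gy and at 14.0, 18.2 and 19.6 CPM after 75 Gy. Ciart was the gene that lay below the controls without overlap at both doses and both times, and the doses overlapped each other.

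The REV-ERB genes close the second arm of the loop. Nr1d1 (chr11:98767932-98775377) was at 28.9, 71.6 and 127 CPM in controls of 2 weeks, at 76.4, 116 and 91.2 CPM after 65 Gy and at 108, 135 and 61.6 CPM after 75 Gy. At 6 weeks Nr1d1 was at 229, 236 and 237 CPM in controls, at 171 and 161 CPM after 65 Gy and at 132, 81.0 and 88.0 CPM after 75 Gy. The groups of 2 weeks overlapped, whereas those of 6 weeks were in the order of the dose without overlap, and the 75 Gy libraries of 6 weeks stayed within the range of 2 weeks. Nr1d2 (chr14:18204056-18239106), its paralog, was at 42.7, 82.4 and 104 CPM in controls of 2 weeks and from 65.7 to 118 CPM in irradiated lungs. At 6 weeks Nr1d2 was at 222, 228 and 213 CPM in controls, at 154 and 160 CPM after 65 Gy and at 155, 181 and 166 CPM after 75 Gy. Unlike Nr1d1, Nr1d2 was not ordered by dose at 6 weeks, although both doses lay below the controls.

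Dbp and Nfil3 are the pair of factors that act at D-boxes. Dbp (chr7:45705100-45710203), the activator, was at 4.87, 13.8 and 28.9 CPM in controls of 2 weeks, at 16.1, 39.8 and 22.1 CPM after 65 Gy and at 34.3, 35.4 and 16.9 CPM after 75 Gy. At 6 weeks Dbp was at 159, 174 and 143 CPM in controls, at 122 and 104 CPM after 65 Gy and at 104, 102 and 96.7 CPM after 75 Gy. The groups overlapped at 2 weeks, every 6-week library was above every 2-week library, and both doses lay below the controls at 6 weeks. Nfil3 (chr13:52967209-52982878), the repressor, was at 27.2, 17.1 and 13.0 CPM in controls of 2 weeks, at 19.1, 16.6 and 17.9 CPM after 65 Gy and at 9.12, 14.0 and 36.9 CPM after 75 Gy, where the high value belonged to library 3134. At 6 weeks Nfil3 was at 8.56, 6.51 and 5.95 CPM in controls, at 7.68 and 17 CPM after 65 Gy and at 14.0, 18.3 and 21.8 CPM after 75 Gy. The 75 Gy libraries of Nfil3 at 6 weeks, like those of Nr1d1 and Per2, thus lay within the range of all 2-week libraries. The 6-week controls of Nfil3 were lower than that range, whereas those of Nr1d1 and Per2 were higher.

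Each dose was then compared with the controls of the same time, in contrasts that are among those in which the genes had been seen to differ. A gene was called with an adjusted p of 0.05 or less by edgeR's quasi-likelihood test together with a log2 fold change of 1 or more in either direction, the limits of the study. Of the 10 clock genes, 1 was called lower after 75 Gy at 2 weeks, where 7.74% of all genes tested were called, 5.67% higher and 2.07% lower. After 75 Gy at 6 weeks 1 was called higher and 1 lower, where 10.4% of all genes were called, 7.28% higher and 3.13% lower. After 65 Gy 0 were called at 2 weeks, against 4.35% of all genes (3.47% higher and 0.88% lower), and 0 at 6 weeks, against 5.28% (4.34% higher and 0.943% lower). The groups did not overlap for 4 and 10 of the clock genes after 75 Gy and for 2 and 9 after 65 Gy, at 2 and 6 weeks. The same held for 30.2% and 57.1% of all genes after 75 Gy and for 29.4% and 56.3% after 65 Gy. The median log2 fold change of the 10 genes was -0.06 and -0.59 after 75 Gy and -0.04 and -0.49 after 65 Gy, at 2 and 6 weeks, where the median over all genes lay between -0.01 and 0.04.

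At 2 weeks the gene called was Per1, 2.64-fold lower after 75 Gy (log2 fold change -1.40 ± 0.35 SE). Its value after 65 Gy was -0.46 ± 0.34, without a call. Arntl had a log2 fold change of -0.88 ± 0.12 after 75 Gy and -0.52 ± 0.12 after 65 Gy, the values with the smallest errors, and Ciart had -0.87 ± 0.23 and -0.69 ± 0.23. Npas2 was at -0.80 ± 0.25 after 75 Gy. Dbp pointed the other way, with a log2 fold change of 0.86 ± 0.46 after 75 Gy and 0.71 ± 0.46 after 65 Gy. These Dbp values rested on single libraries, since the log2 fold change after 65 Gy was 0.26 without library 3130 and 1.48 without control library 3128, and that after 75 Gy was 0.44 without control library 3126 and passed the limits at 1.63 without 3128. Nfil3, Per2, Per3, Nr1d1 and Nr1d2 had values between -0.10 and 0.42 with errors of 0.26 to 0.42. Leaving out single libraries gave up to 3 calls after 75 Gy at this time, among them Ciart without 3126 (log2 fold change -1.04) and Npas2 without 3133 (-1.07).

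At 6 weeks after 75 Gy, Nfil3 was 2.58-fold higher (log2 fold change 1.36 ± 0.43) and Nr1d1 was 2.34-fold lower (-1.22 ± 0.39), and both were called. These calls were close to the limit. Nfil3 lost its call without any one of libraries 3136, 3137, 3142 and 3143 and Nr1d1 without 3136, 3142 or 3143, with log2 fold changes that stayed between 1.22 and 1.54 for Nfil3 and between -1.48 and -1.08 for Nr1d1. Npas2 had a log2 fold change of 0.78 ± 0.26 and Arntl of 0.29 ± 0.12, whereas Per2 was at -0.68 ± 0.27, Ciart at -0.66 ± 0.22, Dbp at -0.65 ± 0.45, Per3 at -0.63 ± 0.33, Per1 at -0.55 ± 0.34 and Nr1d2 at -0.40 ± 0.26. After 65 Gy, compared with the same controls, the values ran from -1.10 ± 0.39 for Per1 and -0.79 ± 0.26 for Ciart to 0.82 ± 0.47 for Nfil3 and 0.91 ± 0.28 for Npas2, with 0.29 ± 0.14 for Arntl and the other 5 genes between -0.54 and -0.48. Per1 at 65 Gy rested on library 3138, since the log2 fold change was -0.50 without it and -2.11, with a call, without library 3140.

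Markers of other cells moved with irradiation, and their part in the clock gene values was not tested. At 2 weeks the summed level of 6 endothelial markers was 2826 to 3141 CPM in controls, 2137 to 2174 CPM after 65 Gy and 1260 to 2315 CPM after 75 Gy, and at 6 weeks 3087 to 3163, 1696 to 1911 and 1316 to 1588 CPM. All 6 of them were lower in all 4 comparisons. Summed levels of 6 macrophage markers at 6 weeks were 432 to 587 CPM in controls and 1511 to 2182 CPM in irradiated lungs, with all 6 higher at both doses. At 2 weeks 4 of these 6 were higher and 2 lower after 65 Gy, and 5 were higher and 1 lower after 75 Gy. Markers of dividing cells, 5 in number, summed to 52.7 to 58.1 CPM in controls of 2 weeks and 143 to 260 CPM in irradiated lungs, and 7 neutrophil markers to 450 to 712 CPM and 140 to 255 CPM. Of the 7 neutrophil markers, 6 were lower and 1 higher after either dose at 2 weeks. None of the markers of these 4 lists was at 0 in a library.

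**Figure D2:**
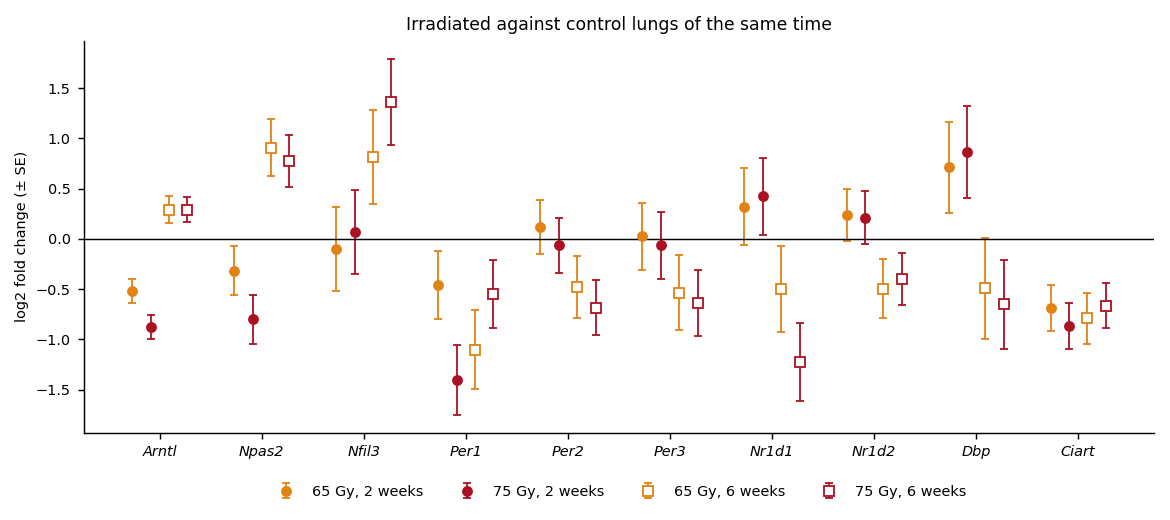
Log2 fold change (± SE) of the clock genes in irradiated against control lungs, with filled circles for 2 weeks, open squares for 6 weeks and a colour for each dose. Arntl and Npas2 lay below 0 at 2 weeks and above 0 at 6 weeks, Dbp the reverse, and Ciart below 0 in all 4 comparisons.

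The doses were compared with each other as a further description, since the genes had been chosen over all dose and time groups and this comparison uses the same libraries. None of the 10 clock genes and none of the 22052 genes tested was called between 75 Gy and 65 Gy at either time by edgeR's quasi-likelihood test (0% called). At an unadjusted p under 0.05 in that test, 1570 of the 22052 genes passed at 2 weeks and 1431 at 6 weeks. DESeq2 called 7 and 14 genes and edgeR's exact test 6 and 11, at 2 and 6 weeks, with 0 clock genes among them. Arntl was 1.28-fold lower after 75 Gy than after 65 Gy at 2 weeks (log2 fold change -0.36, 95% interval -0.61 to -0.10), and all 3 libraries of 75 Gy lay below all 3 of 65 Gy, a separation found for 10.9% of all genes. Per1 was 1.92-fold lower (log2 fold change -0.94, interval -1.67 to -0.21), with overlapping groups. At 6 weeks Nr1d1 had a log2 fold change of -0.73 (interval -1.62 to 0.17), and Nr1d1 and Per2 were the clock genes whose doses did not overlap, against 30.9% of all genes. Since the genes were chosen over these groups, the intervals are a description and not a test. Those of the other clock genes all held 0. They reached past -1 or 1 on the log2 scale for Npas2 (-1.01), Nfil3 (1.05) and Dbp (1.11) at 2 weeks and for Dbp (-1.22), Per1 (1.37) and Nfil3 (1.56) at 6 weeks. Arntl had the narrowest interval at 6 weeks, -0.30 to 0.30.

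Lungs of 6 weeks were also compared with lungs of 2 weeks within each condition, and these contrasts too are among the groups over which the genes were chosen. In control lungs 6 of the 10 clock genes were called, 4 higher and 2 lower, where 0.576% of all genes tested were called, 0.24% higher and 0.336% lower. Arntl was 5.26-fold lower at 6 weeks (log2 fold change -2.40 ± 0.13) and Npas2 6.44-fold lower (-2.69 ± 0.27). Dbp was 9.97-fold higher (3.32 ± 0.49), Per3 2.95-fold higher (1.56 ± 0.34), Nr1d2 2.90-fold higher (1.53 ± 0.26) and Per2 2.34-fold higher (1.23 ± 0.27). The other 4 were not called, although the groups did not overlap for any of the 10 genes, as for 23.6% of all genes. Their log2 fold changes were 1.63 ± 0.39 for Nr1d1, 1.07 ± 0.34 for Per1, 0.90 ± 0.23 for Ciart and -1.45 ± 0.43 for Nfil3. The calls of Arntl, Npas2, Dbp and Nr1d2 held whichever single library was left out. Those of Per2 and Per3 were lost when any 1 of the 6-week controls was left out, and that of Per2 also without 3126, at a log2 fold change of 0.92, or 3128, at 1.16. Dbp ranged from 2.89 without control library 3126 to 4.09 without 3128. With only the control libraries in the fit, 3 of the 10 genes were called, where 32 of all genes were called.

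In 65 Gy lungs 2 clock genes were called between the times, both lower, against 0.34% of all genes (0.254% higher and 0.0862% lower). In 75 Gy lungs 3 were called higher and 2 lower, against 3.16% of all genes (2.32% higher and 0.834% lower). The groups of the 2 times did not overlap for 8 of the 10 genes in 65 Gy lungs and for 8 in 75 Gy lungs, as for 38.6% and 27.9% of all genes. Arntl had a log2 fold change of -1.58 ± 0.14 at 6 weeks after 65 Gy and was 2.34-fold lower after 75 Gy (-1.23 ± 0.12). Npas2 was 2.76-fold lower (-1.47 ± 0.29) and 2.16-fold lower (-1.11 ± 0.25). Dbp had a log2 fold change of 2.12 ± 0.50 after 65 Gy, without a call, and was called at 1.81 ± 0.46 after 75 Gy. After 75 Gy Per1 was 3.80-fold higher at 6 weeks (1.93 ± 0.35) and Ciart 2.15-fold higher (1.10 ± 0.23). Nr1d1 had a log2 fold change of -0.02 ± 0.38 after 75 Gy and 0.81 ± 0.42 after 65 Gy, beside 1.63 ± 0.39 in controls. Arntl, Npas2, Nfil3, Dbp, Per2, Per3, Nr1d1 and Nr1d2 each had values of smaller size in both irradiated conditions than in controls, and this difference was not tested. Without library 3134 the calls of Dbp and Ciart after 75 Gy were lost, at log2 fold changes of 1.53 and 0.94. That of Dbp was also lost without 3142 or 3143, and that of Npas2 without 3133, at -0.84, or 3142, at -0.98. After 65 Gy the call of Npas2 was lost without 3129, 3131, 3138 or 3140.

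Markers of other cells also moved between the times in 75 Gy lungs, and their part in the clock gene values was not tested. Of all genes, 2.32% rose and 0.834% fell there, and 0.254% rose and 0.0862% fell in 65 Gy lungs. Of 5 cardiac muscle markers 4 rose, and their summed level was 58.3 to 230 CPM at 2 weeks and 421 to 607 CPM at 6 weeks, beside 274 to 360 and 146 to 584 CPM in controls. Nppa, the other of the 5, was at 0 in library 3134. Of 4 smooth muscle markers 2 rose, with sums of 196 to 275 and 314 to 439 CPM. All 6 adipocyte markers were higher at 6 weeks without overlap, where 27.9% of all genes had no overlap in either direction. Only Lep, which encodes leptin and was at 0 in library 3134, was called, and the 6 markers summed to 25.2 to 41.1 and 87.9 to 105 CPM. Of 6 macrophage markers 1 rose and 1 fell after either dose, and of 5 markers of dividing cells 1 fell after 75 Gy. In control lungs 1 fibroblast marker fell and no other cell marker was called between the times, where 0.336% of all genes fell.

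Heat-shock and cold-inducible genes moved with the time in control lungs, and their part in the clock gene values was not tested. Of 9 temperature-responsive genes, 1 rose and 6 fell at 6 weeks in controls by the limits above. Of all genes, 0.24% rose and 0.336% fell. Cirbp, an RNA-binding protein induced by mild cold, rose by 1.07 on the log2 scale (edgeR adjusted p = 0.00127), and the heat-shock proteins Hspa1a and Hspa1b fell by 3.09 and 3.36 (edgeR adjusted p = 0.00297 and 0.00193). The summed level of the 9 genes was 2293 to 3652 CPM in controls of 2 weeks and 1401 to 1454 CPM in those of 6 weeks. With only the control libraries in the fit, Cirbp rose and Hspa8, another heat-shock protein, fell, and the rise of Cirbp was not called without library 3126. Cirbp also rose between the times in 75 Gy lungs, by 1.11 (edgeR adjusted p = 0.000518), and this call was lost without library 3134. At 2 weeks Hspa1a and Hspa1b fell by 2.08 and 2.02 after 75 Gy (edgeR adjusted p = 0.00278 and 0.00348) and by 1.88 and 1.88 after 65 Gy (edgeR adjusted p = 0.0105 and 0.0109). Hspa1a was at 106, 152 and 26.1 CPM in controls of 2 weeks, and the calls at 65 Gy were lost without library 3127 or 3129. Hspa1a and Hspa1b are near-identical copies, so their counts cannot be fully told apart.

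**Figure D3:**
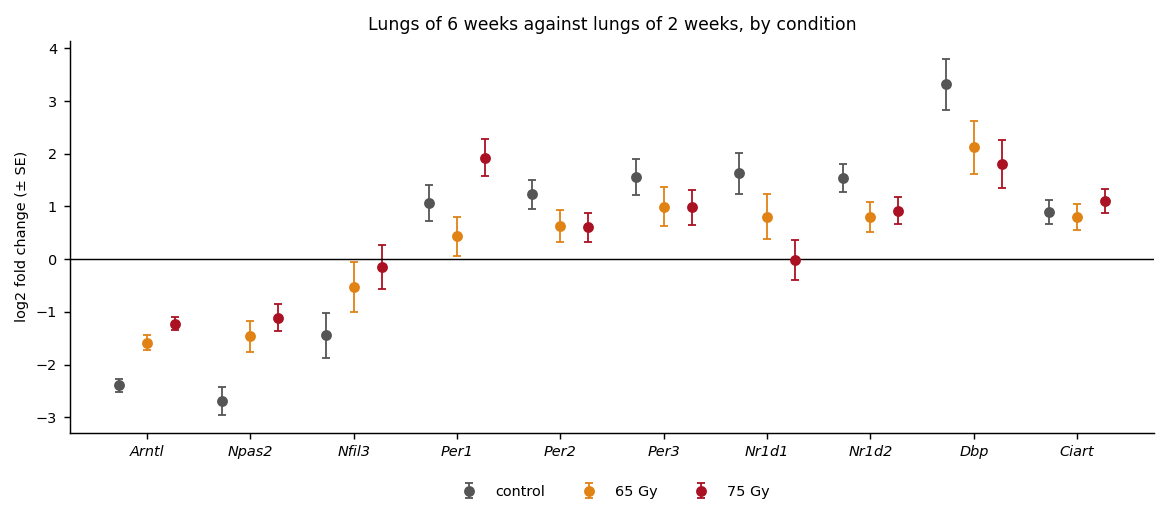
Log2 fold change (± SE) of the clock genes at 6 weeks against 2 weeks in control, 65 Gy and 75 Gy lungs. Arntl and Npas2 lay below 0 in all 3 conditions and Dbp, Per3 and Nr1d2 above 0, with the controls farthest from 0 for each of these 5 genes.

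In controls the spread of several clock genes among libraries was wider at 2 weeks than at 6 weeks, as was that of all genes, whose median log2 range within the group was 0.28 and 0.15. In controls of 2 weeks the highest library was 5.94 times the lowest for Dbp, 4.37 times for Nr1d1, 3.16 times for Per3 and 2.96 times for Per2, but 1.27 times for Arntl. In controls of 6 weeks the same ratio was 1.22 for Dbp, 1.04 for Nr1d1, 1.15 for Per3, 1.05 for Per2 and 1.13 for Arntl. Npas2 had 1.35 and 1.48 times in the 2 control groups. After 65 Gy Per1 had 1.72 times at 2 weeks and 3.08 at 6 weeks, Nfil3 1.15 and 2.21 times and Ciart 1.31 and 1.69 times, so that these were wider at the later time. Library 3126 was the lowest control of 2 weeks for Dbp, Nr1d1, Nr1d2, Per1, Per2, Per3 and Ciart and the highest for Nfil3. It also had 1098 CPM over the 6 macrophage markers, against 479 and 527 CPM in the other controls of 2 weeks.

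Whether the clock genes varied together inside the groups was a question the choice of the genes did not use. The mean log2 CPM of each group was taken off, and the deviations of the 17 libraries were compared with an exact two-sided permutation test that kept libraries in their groups. Against Arntl, 0 of 9 pairs had an adjusted p of 0.05 or less. Npas2 was the closest (Pearson r = 0.61, Spearman rho = 0.56, exact permutation p = 0.0303, adjusted over 9 pairs p = 0.273), a value reached in either sign by 1.27% of 14473 other genes, and r was 0.73 without libraries 3143 and 3130, the farthest from the median for Arntl. Dbp had r = -0.39 with Arntl (exact permutation p = 0.282, adjusted p = 0.861). Over the 6 groups the highest library was 1.13 to 1.28 times the lowest for Arntl and 1.08 to 5.94 times for Dbp.

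Dbp, chosen as the reference after its spread had been seen, gave 4 of 9 pairs with an adjusted p of 0.05 or less. The adjustment covers these 9 pairs and takes no account of that choice. Nr1d2 had r = 0.97 (rho = 0.88, exact permutation p = 0.00399, adjusted p = 0.00911), Per3 had r = 0.95 (rho = 0.94, exact permutation p = 0.000193, adjusted p = 0.00174) and Nr1d1 had r = 0.93 (rho = 0.86, exact permutation p = 0.000772, adjusted p = 0.00347). Nfil3 went the other way, with r = -0.66 (rho = -0.73, exact permutation p = 0.00405, adjusted p = 0.00911). Among 14473 genes other than the 10, as strong an r of either sign with Dbp was found for 0 genes in the case of Nr1d2, 1 in that of Per3 and 4 in that of Nr1d1, but for 14% of the genes in the case of Nfil3. Per2 had r = 0.66 and rho = 0.81 (exact permutation p = 0.188 and 0.00360, adjusted p = 0.282 and 0.0108), and its r was 0.22 without control library 3126 and 0.91 without 3127. Ciart had r = 0.56 (adjusted exact permutation p = 0.134) and Per1 r = 0.03 (adjusted exact permutation p = 0.910). Without libraries 3126 and 3128, the farthest in Dbp, r was 0.94 for Nr1d2, 0.98 for Per3, 0.80 for Nr1d1, -0.63 for Nfil3 and 0.86 for Per2. In the 11 irradiated libraries alone 4 pairs passed, with r = 0.98 for Per3, 0.86 for Per2, 0.82 for Nr1d1 and -0.66 for Nfil3, and Nr1d2 did not, at r = 0.95 (adjusted exact permutation p = 0.0833). In the 6 control libraries alone 0 pairs passed, at r = 0.98 for Nr1d2, 0.94 for Per3 and 0.99 for Nr1d1, since the deviations of so few libraries can be arranged within their groups in few ways.

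**Figure D4:**
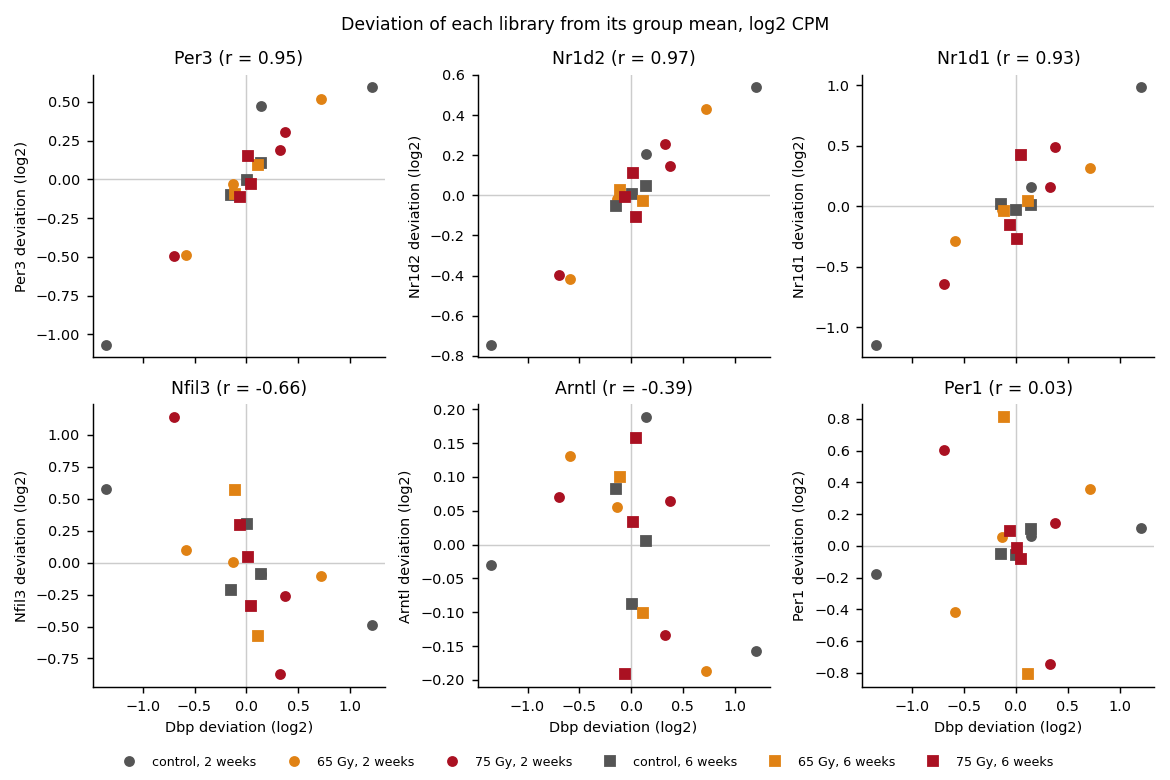
Deviation of each of 17 libraries from its group mean (log2 CPM) for 6 clock genes, plotted against that of Dbp, with colour for the dose, circles for 2 weeks and squares for 6 weeks. Per3, Nr1d2 and Nr1d1 rise with Dbp (r = 0.95, 0.97 and 0.93), Nfil3 goes down (r = -0.66), Per1 shows no trend (r = 0.03), and most of the spread in Dbp belongs to 2-week libraries.

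Per1 was set beside 11 glucocorticoid-induced genes after its separate pattern had been seen, as a description. Inside the groups it went with Errfi1 (r = 0.89), an inhibitor of EGF receptor signalling, with Ddit4 (r = 0.85), an inhibitor of mTOR, and with Tsc22d3 (r = 0.78), the leucine zipper protein GILZ, over 17 libraries. Part of this was library 3138, in which Per1 was at 75.3 CPM, Errfi1 at 159 CPM and Tsc22d3 at 117 CPM, and without it r was 0.77, 0.69 and 0.54. The other 8 genes of the list had r between -0.06 (Zbtb16) and 0.57 (Klf9), and between -0.26 (Pdk4) and 0.67 (Fkbp5) without that library. Over all 17 libraries genes outside the list were closer to Per1 than Ddit4 was, namely Gm45935 (r = 0.88), AA986860 (0.88), Gm46911 (0.87) and Nfkbia (0.87). The pairing was thus not particular to the list, and the share of all genes with as strong an r was not counted. Of the 11 genes, 3 fell and 1 rose after 75 Gy at 2 weeks, the comparison in which Per1 was called. Of all genes, 2.07% fell and 5.67% rose there. Errfi1 fell by 1.73 on the log2 scale (edgeR adjusted p = 0.00195), Tsc22d3 by 1.47 (edgeR adjusted p = 3.12e-05) and Dusp1, a MAP kinase phosphatase, by 1.13 (edgeR adjusted p = 0.0152), while the metallothionein Mt2 rose by 1.28 (edgeR adjusted p = 0.0121). Mt2 lost its call without control library 3127 or 3128 and Dusp1 without 3126. At 6 weeks 2 rose and 1 fell after 75 Gy and 2 rose and 0 fell after 65 Gy. Of all genes, 7.28% rose and 3.13% fell after 75 Gy, and 4.34% rose and 0.943% fell after 65 Gy. Mt1 rose by 2.24 and Mt2 by 2.90 on the log2 scale after 75 Gy (edgeR adjusted p = 2.00e-05 and 4.11e-05), Mt1 by 1.81 and Mt2 by 2.43 after 65 Gy (edgeR adjusted p = 0.000417 and 0.000654), and Zbtb16, a transcription factor, fell by 1.60 after 75 Gy (edgeR adjusted p = 0.0138). Zbtb16 lost its call without library 3137, 3142 or 3143. Between the times in 75 Gy lungs, where Per1 was also called and 2.32% of all genes rose, 4 of the 11 rose and 0 fell. They were Errfi1 by 1.78 on the log2 scale (edgeR adjusted p = 0.00647), Pdk4, an inhibitor of pyruvate dehydrogenase, by 1.31 (edgeR adjusted p = 0.0150), Mt1 by 1.17 (edgeR adjusted p = 0.00865) and Tsc22d3 by 1.04 (edgeR adjusted p = 0.00238). Tsc22d3 lost this call without 3132 or 3142, and Mt1 and Pdk4 without 3143. In control lungs and in 65 Gy lungs 0 of the 11 were called between the times.

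Immediate-early genes, which answer stress and handling within minutes, were checked because Per1 and Nfil3 are also induced quickly. Of 11, 3 rose after 75 Gy and 2 after 65 Gy at 6 weeks, where 7.28% and 4.34% of all genes rose. At 2 weeks 1 fell after 75 Gy, where 2.07% of all genes fell. Junb rose by 1.14 and 1.29 on the log2 scale at 6 weeks after 75 Gy and 65 Gy (edgeR adjusted p = 0.0282 and 0.0474), Egr2 by 1.92 and 1.495 (edgeR adjusted p = 0.00202 and 0.0304) and Atf3 by 1.29 after 75 Gy (edgeR adjusted p = 0.0273). Nr4a1 fell by 1.54 after 75 Gy at 2 weeks (edgeR adjusted p = 0.0112), a call that was lost without control library 3126. Leaving out single libraries gave 1 to 5 calls after 75 Gy and 0 to 4 after 65 Gy at 6 weeks, the highest in each case without control 3135, in which Junb was at 292 CPM against 119 and 107 CPM in the other controls of 6 weeks. Without control 3136 or 3137 Egr2 was the only call after 75 Gy, as it was without 3143, and 0 were called after 65 Gy, as without 3140. Between the times 2.32% of all genes rose in 75 Gy lungs. Of the 11, 3 rose there, Egr1 by 2.41, Nr4a1 by 1.43 and Ier2 by 1.38 on the log2 scale (edgeR adjusted p = 0.0360, 0.0312 and 0.0179), and 0 rose in control or 65 Gy lungs. None of these was called without library 3143. Egr1 lost its call also without 3132, 3134 or 3142 and Nr4a1 without 3132, 3134 or 3141. Their part in the levels of Per1 and Nfil3 was not tested.

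The rest of the clock was read from 11 other transcription factors, 11 kinases, ubiquitin ligases and cofactors, and 9 outputs. Among the transcription factors 2 rose and 0 fell at 2 weeks after either dose. Of all genes, 5.67% rose after 75 Gy and 3.47% after 65 Gy at that time. At 6 weeks 0 of the transcription factors were called after either dose, against 10.4% of all genes after 75 Gy and 5.28% after 65 Gy. The transcription factors that rose were Bhlhe41 and Bhlhe40 (DEC2 and DEC1), which repress E-box genes. Bhlhe41 was at 6.31, 8.74 and 9.15 CPM in controls of 2 weeks, at 26.7, 32.0 and 31.4 CPM after 65 Gy and at 30.7, 43.2 and 47.6 CPM after 75 Gy. It rose 3.72-fold after 65 Gy (log2 fold change 1.90 ± 0.17, edgeR adjusted p = 7.64e-06) and 5.02-fold after 75 Gy (2.33 ± 0.17, edgeR adjusted p = 7.57e-07). Controls of 6 weeks were at 30.7, 33.3 and 28.2 CPM, so that Bhlhe41 also rose between the times in controls (log2 fold change 1.93 ± 0.17, edgeR adjusted p = 4.88e-05). Bhlhe40 was at 48.3, 70.8 and 78.2 CPM in controls of 2 weeks, at 152, 123 and 138 CPM after 65 Gy and at 112, 148 and 174 CPM after 75 Gy. It rose by 1.07 on the log2 scale after 65 Gy (edgeR adjusted p = 0.000999) and by 1.14 after 75 Gy (edgeR adjusted p = 0.000348). The Bhlhe40 call was lost without control library 3126 at both doses, without 3129 after 65 Gy and without 3134 after 75 Gy.

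Tef, a relative of Dbp at D-boxes, was at 89.2, 180 and 178 CPM in controls of 2 weeks and at 379, 413 and 365 CPM in those of 6 weeks. It rose 2.59-fold between the times in controls (log2 fold change 1.37 ± 0.25, edgeR adjusted p = 0.0129), and lost the call without library 3136. Hlf, the third factor of that family, had a log2 fold change of 1.43 ± 0.44 there (edgeR adjusted p = 0.136). Clock, the partner of Arntl, had a log2 fold change of -0.60 ± 0.10 (edgeR adjusted p = 0.00795) and Cry2, a repressor, 0.70 ± 0.16 (edgeR adjusted p = 0.0428), both below the fold limit. None of the 11 kinases, ligases and cofactors was called in any of the comparisons of dose or time, where Csnk1e, a kinase that marks Per proteins, had a log2 fold change of -0.56 after 75 Gy at 6 weeks (edgeR adjusted p = 0.000648). Without the fold limit 6 of these 11 passed after 75 Gy at 6 weeks, all of them lower, where 7935 of all 22052 genes passed. Of the 9 outputs, 1 was called after 75 Gy at 2 weeks (Tsc22d3, lower), 0 in the other comparisons of dose with control, and 1 between the times in controls, Tspan4, a tetraspanin, which rose by 1.03 on the log2 scale (edgeR adjusted p = 0.000626) and was not called without library 3136. Of all genes, 7.74% were called after 75 Gy at 2 weeks and 0.576% between the times in controls. In 75 Gy lungs 2 outputs rose between the times, where 2.32% of all genes rose. They were Pdk4 and Tsc22d3, with the values given above.

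**Figure D5:**
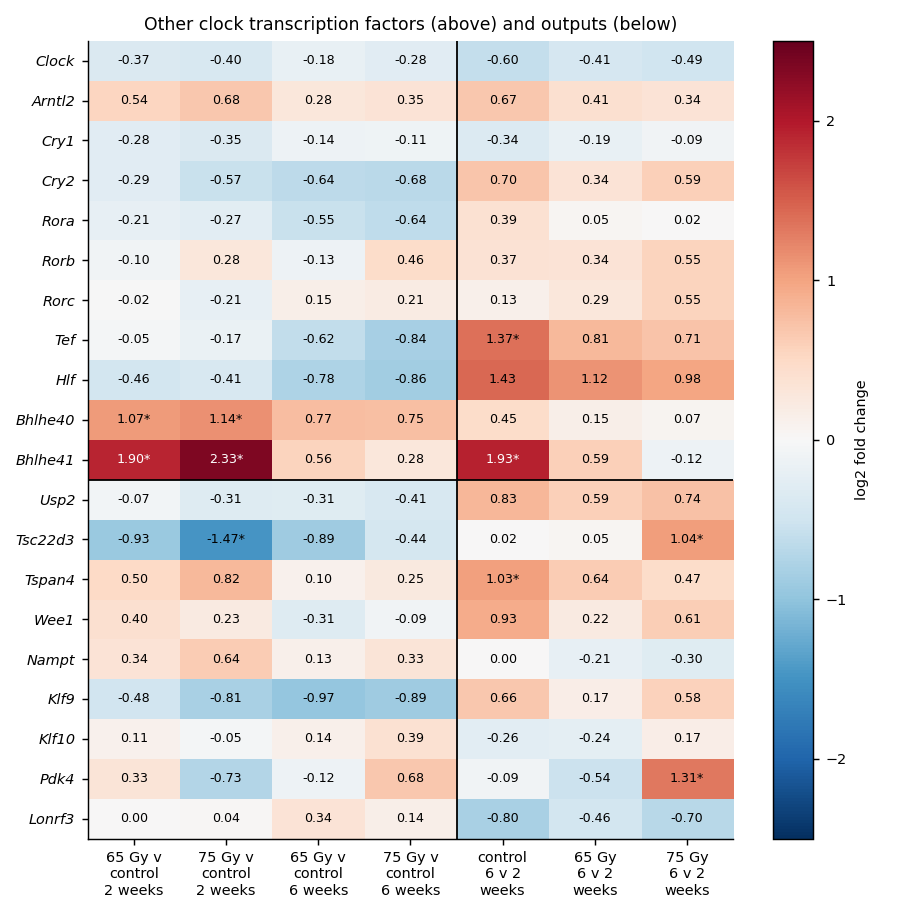
Log2 fold change of 11 other clock transcription factors (above the line) and 9 clock outputs (below it), as numbers and colours, in 4 comparisons of irradiated with control lungs and 3 of 6 with 2 weeks, with an asterisk on genes called by edgeR. Bhlhe40 and Bhlhe41 are the transcription factors called after irradiation, at 2 weeks, and Tef and Bhlhe41 those called between the times in controls.

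The genes most like the clock genes were sought among 14473 genes other than the 10 whose log2 CPM averaged 1 or more, as a description. With group means removed, the highest r with Dbp belonged to Tll1 (0.96), Fam129a (0.94), Itga6 (0.94), Hlf (0.94) and Reep3 (0.93), of which Hlf is the relative of Dbp named above. The lowest with Dbp were Nol12 (-0.93), Mrto4 (-0.92), Ppa1 (-0.92), Eif2b5 (-0.92) and Cdc37 (-0.91). The highest with Arntl were Adamts14 (0.87), Dnajc30 (0.83), Dvl1 (0.81), Pwwp3a (0.81) and Gm7935 (0.80), and the lowest Tmem25 (-0.82), Leprot (-0.79), Lmbr1 (-0.77), Ankrd28 (-0.75) and Gstm4 (-0.75). With the groups left in, Spon2 (0.96), E2f6 (0.93), Hspa4 (0.92), Lman1 (0.91) and Apex2 (0.91) were nearest to Arntl, and Pik3ip1 (0.96), Ccbe1 (0.94), Slc25a16 (0.92), Rasd2 (0.92) and Sord (0.92) to Dbp. These values are over 17 libraries that fall into groups of dose and time and differ in depth.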

How the data were processed

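RNA-seq of 17 mouse lung libraries was analysed, 3 per group of dose and time and 2 for 65 Gy at 6 weeks. The authors made stranded paired-end mRNA libraries (TruSeq, NovaSeq), trimmed reads with Trimmomatic, aligned them with HISAT2 to GRCm38.p6 (also named in the submitters' processing notes) and ran StringTie. They deposited whole-number read counts for 45777 genes without normalization, and the step from StringTie to these counts is not given in the sources used here.

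Counts of all 17 libraries were fitted in R 4.3.3 with edgeR 4.0.16 (filterByExpr with min.count 10 and min.total.count 15, TMM factors, 1 coefficient per group, quasi-likelihood F test, Benjamini-Hochberg adjustment over 22052 genes). CPM are TMM-scaled, and the SE is the log2 fold change divided by the square root of F. Intervals of 95% use the t distribution of the fit. Log2 CPM use a prior count of 2. Alternatives were other filters, RLE and upper-quartile factors, no fold limit, only the groups compared, edgeR's exact test, DESeq2 1.42.0, a prior count of 0.5 and each library left out. Scripts were tested on simulated data. Totals of 46764569 to 66797879 counts leave the spread between libraries, not counting error, as the limit on precision. Nothing states how libraries of a group relate, so p-values measure the spread between these libraries.

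Genes named are the 10 clock genes, members of the other lists called in a comparison of irradiated with control lungs, and the 5 most alike at each end. Tef, Hlf, Clock, Cry2, Csnk1e, Cirbp, Tspan4, Ddit4, Klf9, Fkbp5, Pdk4, Egr1, Ier2, Nppa and Lep, the 5 lowest with Dbp, the reference Dbp, the pairing of Per1 with glucocorticoid-induced genes and the genes nearest to Per1 were chosen after values were seen. The clock genes and all lists were chosen with earlier results of these data known.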

Additional observations from a re-analysis of the deposited data

Results flagged for a closer look

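For 6 values every irradiated library lay on one side of the mean log2 CPM of its controls at 2 weeks and on the other side at 6 weeks. Whether the effects of the 2 times differ was not tested. Given as the log2 fold change at 6 weeks minus that at 2 weeks, the difference was 0.81 for Arntl after 65 Gy, 1.17 for Arntl after 75 Gy and 1.58 for Npas2 after 75 Gy. It was -0.82 for Nr1d1 after 65 Gy, where the value at 2 weeks was 0.32 ± 0.38 and turned to -0.064 without control library 3126. The lowest of these Nr1d1 libraries (76.4 CPM) lay close to 75.7 CPM, the control mean taken without logs. The difference was -1.20 for Dbp after 65 Gy and -1.51 for Dbp after 75 Gy. The lowest Dbp library of 2 weeks was at 16.1 CPM after 65 Gy and 16.9 CPM after 75 Gy, beside controls at 4.87, 13.8 and 28.9 CPM.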

How the results depend on the processing

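No paired analysis was possible because the libraries are numbered through the whole series and share no replicate number across groups. Under other filters, factors, tests and sample sets, 717 log2 fold changes of the clock genes were counted as unchanged and 3 as reversed. The setting without the fold limit is among these and reuses the same fit, so its fold changes could not shift. Against controls and between the times, unchanged meant a shift smaller than the gene's standard deviation of log2 CPM within groups, averaged over the groups. There a change of sign was counted only for called values. Between the doses, unchanged meant the same sign and the same call, whatever the size. The 3 reversed values were all for Arntl between the doses at 6 weeks, a value near 0. They were 0.015 with upper-quartile factors, 4.73e-05 with only the groups compared and 0.000257 with edgeR's exact test. With single libraries left out, 464 log2 fold changes were counted as unchanged, 32 as shifted and 14 as reversed. Without the fold limit 4 clock genes were called after 75 Gy at 2 weeks, 4 at 6 weeks, 1 after 65 Gy at 2 weeks and 1 at 6 weeks. Of all 22052 genes, 4922, 7935, 2422 and 3234 were called in the same 4 comparisons. After 65 Gy at 6 weeks 1 was called by edgeR's exact test and 1 by DESeq2, Per1, where 1410 and 1337 of all genes were called. With only the groups compared in the fit, which leaves fewer libraries to estimate the spread, 3 were called between the times in controls and 3 in 75 Gy lungs. The same fits called 32 and 171 of all genes. With single libraries left out, 1 to 3 were called after 75 Gy at 2 weeks, 0 to 2 at 6 weeks, 0 to 2 after 65 Gy at 6 weeks, 4 to 6 between the times in controls, 1 to 2 in 65 Gy lungs and 3 to 6 in 75 Gy lungs. Over all genes the ranges, in the same order, were 1097 to 2053, 1777 to 2548, 604 to 953, 58 to 133, 15 to 57 and 286 to 777.

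Between the doses at 2 weeks, with single libraries left out, log2 fold changes ran from -0.10 to 0.60 for Dbp, -0.63 to 0.51 for Nfil3, -0.16 to 0.36 for Nr1d1, -0.21 to 0.22 for Nr1d2, -0.35 to 0.069 for Per2 and -0.30 to 0.21 for Per3. At 6 weeks they ran from -0.11 to 0.092 for Arntl, -0.22 to 0.54 for Ciart and -0.057 to 1.56 for Per1, the lowest without library 3138 and the highest without 3140. Against controls at 2 weeks signs turned for Nfil3 (-0.31 to 0.25 after 65 Gy and -0.72 to 0.41 after 75 Gy), Nr1d2 (-0.043 to 0.53 and -0.064 to 0.50), Per2 (-0.18 to 0.60 and -0.36 to 0.41), Per3 (-0.34 to 0.30 and -0.42 to 0.21) and, after 65 Gy, Nr1d1 (-0.064 to 0.91). At 6 weeks against controls 0 did. Between the times signs turned for Per1 in 65 Gy lungs (-0.60 to 1.02) and, in 75 Gy lungs, for Nfil3 (-0.49 to 0.64) and Nr1d1 (-0.30 to 0.24). The causes were not tested.

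Over all genes, counts without the fold limit were 4922 after 75 Gy at 2 weeks (1707 with it), 7935 at 6 weeks (2297), 2422 after 65 Gy at 2 weeks (960), 3234 at 6 weeks (1164), 359 between the times in controls (127) and 2387 in 75 Gy lungs (696). With only the groups compared they were 834 after 75 Gy at 2 weeks, and between the times 32 in controls, 192 in 65 Gy lungs (75) and 171 in 75 Gy lungs. Between the doses at 6 weeks 1 gene was called with only the groups compared and 1 without the filter. Between the times edgeR's exact test called 238 in controls and 242 in 65 Gy lungs, and DESeq2 244 and 231. Leaving out 3134 gave 1097 after 75 Gy at 2 weeks, and leaving out 3138 or 3140 gave 604 or 743 after 65 Gy at 6 weeks. With single libraries left out the counts between the times were 58 to 133 in controls, 15 to 57 in 65 Gy lungs and 286 to 777 in 75 Gy lungs.

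Of the within-group correlations with Arntl, 1 pair passed without library 3143 and 0 without any other, that of Npas2. Signs changed for Nfil3 (-0.016 in controls), Per2 (-0.50 in irradiated lungs), Per3 (0.057 in controls) and Ciart (0.20 without libraries 3143 and 3130, 0.17 in controls). With single libraries left out r with Arntl ran from -0.29 to 0.058 for Ciart, -0.32 to 0.15 for Nr1d1 and -0.50 to 0.32 for Per2. With Dbp, 0 pairs passed in controls alone and 4 to 5 with single libraries left out, Per2 ran from 0.22 to 0.91, and Per1 had r = -0.13 without 3126 and 3128, -0.15 in irradiated lungs and -0.10 to 0.25 with single libraries left out.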
